A study of Homo sapiens and Mus musculus with 17 samples.

Results

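Cholesterol is made from acetyl-CoA by a chain of enzymes that sit largely in the endoplasmic reticulum (ER), and the chain is switched on by the transcription factor SREBP2, the product of SREBF2. SREBP2 is held in the ER membrane by SCAP and by INSIG proteins while sterols are plentiful. When sterols fall, SREBP2 moves to the Golgi apparatus, is cut there, and enters the nucleus to activate the genes of the pathway, INSIG1 and its own gene included. In brown adipose tissue (BAT), a fat depot that burns lipid for heat, the related factor SREBP1 (Srebf1) drives the making of fatty acids in parallel. SEL1L and the ubiquitin ligase HRD1, encoded by SYVN1, form an ER-associated degradation (ERAD) complex that disposes of proteins of this same membrane system.

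The genes described here are SREBF2, INSIG1, HMGCS1, IDI1, FDFT1, SQLE, LSS and DHCR7, taken by symbol from the tables of both species. All 8 were found among 62714 human genes and all 8 mouse counterparts among 55491 mouse genes. Each of them passed the filter on low values, which asked for 1 FPKM or more in 3 or more of the HEK293T or 2 or more of the BAT libraries, and so stood among 15796 and 12473 tested genes. An FPKM is corrected for both transcript length and library size, so levels of different genes can be compared per length.

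RNA with polyA tails was measured in 9 samples of HEK293T cells, an established line from human embryonic kidney, and in BAT of 8 C57BL/6J mice aged 12 weeks. The cultures were 3 wild type (WT), which by the study's methods had received plasmids without a guide RNA, 3 HRD1 KO and 3 SEL1L KO, made with CRISPR-Cas9. The mice were 3 wild type B6, 2 Hrd1 flox/flox; Ucp1-Cre (Hrd1 KO) and 3 Sel1l flox/flox; Ucp1-Cre (Sel1L KO). Ucp1-Cre acts in brown adipocytes, so that other cells of the depot keep the floxed gene, and nothing in the sources used here says whether the knockout cultures came from 1 clone each or whether cultures were grown separately. P-values therefore measure the spread between these samples.

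The mRNA of the targeted genes was not lower under every knockout label. Total FPKM of a gene does not show whether its protein is made, so these values do not test the labels. The study checked its HEK293T knockout cells by immunoblot. SEL1L FPKM was 1.82 to 3.36 in SEL1L KO and 4.39 to 12.9 in WT cultures, while SYVN1 was 18.5 to 22.5 in cultures labelled HRD1 KO and 16.7 to 17.0 in WT. In BAT, Syvn1 was 13.8 and 14.1 in the libraries labelled Hrd1 KO against 5.20 to 5.65 in WT, and Sel1l was 25.2, 8.17 and 8.38 in Sel1L KO against 9.10 to 12.9 in WT. Sel1L KO replicate 1 stood apart from the other libraries of its group, with Syvn1 at 118 and Dio2, a thyroid hormone deiodinase, at 286 (8.37 to 41.6 in the other WT and Sel1L KO libraries). Groups are therefore named by label, and values without that library are given beside the calls and medians that it moved.

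Human promoters of the members were examined first, for matches to short sequence motifs. RefSeq promoters (GRCh38.p14, 250 bases before to 50 after a start site) were matched for 6 of the 8 members, with 10 promoters in all. The 4 stretches printed below belong to the regulator, its retention protein and an early and a late enzyme, and end before the transcribed part of the gene. Capitals mark the sterol regulatory element TCACNCCAC and the NF-Y box CCAAT, which reads ATTGG where it lies on the other strand.
SREBF2, chr22:41832905-41833044, plus strand: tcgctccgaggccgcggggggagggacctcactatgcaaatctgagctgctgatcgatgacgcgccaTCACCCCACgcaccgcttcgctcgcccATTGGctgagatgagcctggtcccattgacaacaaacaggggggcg
INSIG1, chr7:155297678-155297775, plus strand: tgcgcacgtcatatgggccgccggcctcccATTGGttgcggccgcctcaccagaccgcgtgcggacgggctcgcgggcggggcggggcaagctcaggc
HMGCS1, chr5:43313513-43313612, minus strand: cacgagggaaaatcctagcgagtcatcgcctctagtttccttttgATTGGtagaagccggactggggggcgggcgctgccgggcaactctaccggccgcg
LSS, chr21:46228835-46228974, minus strand: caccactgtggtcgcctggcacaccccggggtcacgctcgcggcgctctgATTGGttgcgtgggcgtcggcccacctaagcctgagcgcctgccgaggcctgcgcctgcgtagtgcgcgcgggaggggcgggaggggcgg

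The NF-Y box, bound by a factor that works together with SREBP2, was present in at least 1 promoter of all 6 matched members, against 39.7% of 27305 genes. Counted by promoter, the box was in 7 of 10 member promoters, against 34.6% of 35116. In the SREBF2 stretch it followed the sterol regulatory element, whose first base lay 133 bases before the start site. That was the only member promoter with this spelling of the element, which 1.13% of 35116 promoters held. The Sp1 box GGGCGG was found in all 6 members against 48.3% of genes, and the E-box CANNTG in 4 of 6 against 73.1%. By promoter these were 9 of 10 against 45% and 4 of 10 against 68.7%. Both strands were searched for each motif. Some matches overlapped, among them neighbouring GGGCGG boxes of INSIG1 and of SREBF2, and a CCAAT pair on opposite strands of IDI1 with an E-box. A match describes letters only.

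In HEK293T cells no member passed the test in either knockout. With limma and an adjusted p under 0.05, 0 of 8 members were called higher or lower in HRD1 KO, where 0.057% of all tested genes were called higher and 0% lower, and 0 of 8 in SEL1L KO, where the shares were 0.0317% and 0%. The count at an unadjusted p under 0.05 was also 0 of 8 in both, where 0.943% of genes were higher and 1.06% lower in HRD1 KO and 0.715% and 0.779% in SEL1L KO. The median log2 fold change of the members was 0.12 in HRD1 KO and 0.17 in SEL1L KO, beside -0.05 and -0.06 over all genes tested.

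SREBF2 (ENSG00000198911, GRCh38 chr22:41833105-41907306), the master regulator, had FPKM of 38.7, 30.5 and 25.8 in WT replicates 1 to 3, 29.2, 35.8 and 22.2 in HRD1 KO and 26.4, 35.5 and 35.2 in SEL1L KO. The 3 groups overlapped, and the means were 31.7 ± 6.49, 29.1 ± 6.79 and 32.4 ± 5.18 (SD, n = 3). The log2 fold change was -0.13 in HRD1 KO (95% confidence interval -0.67 to 0.41) and 0.04 in SEL1L KO (-0.50 to 0.57).

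INSIG1 (ENSG00000186480, chr7:155297776-155310235), the ER protein that retains SCAP and SREBP2 when sterols are high, was at 47.6, 66.0 and 45.9 in WT, 42.3, 97.2 and 46.1 in HRD1 KO and 45.6, 73.2 and 57.9 in SEL1L KO. The highest library of every group was replicate 2. Its log2 fold changes of 0.13 (-0.59 to 0.85) and 0.14 (-0.58 to 0.86) had intervals that span 0.

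HMGCS1 (ENSG00000112972, chr5:43287470-43313512), the cytosolic synthase that opens the mevalonate pathway, was at 20.6, 33.9 and 61.9 in WT, 17.3, 46.0 and 50.7 in HRD1 KO and 22.5, 39.9 and 71.0 in SEL1L KO. Within each group it spanned more than any difference between groups, and replicate 1 was lowest and replicate 3 highest each time. The log2 fold changes were -0.03 (-1.24 to 1.18) and 0.19 (-1.02 to 1.40), which leaves changes of either sign within the interval.

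IDI1 (ENSG00000067064, chr10:1039152-1049119), which isomerises the isoprenoid building block, was at 39.9, 48.7 and 41.7 in WT, 38.9, 68.1 and 53.0 in HRD1 KO and 43.3, 54.4 and 60.8 in SEL1L KO. Its groups overlapped, with log2 fold changes of 0.26 (-0.25 to 0.78) and 0.27 (-0.24 to 0.79). FDFT1 (ENSG00000079459, chr8:11795573-11839395), squalene synthase and the first step committed to sterols, was at 57.5, 58.8 and 113 in WT, 52.4, 81.0 and 111 in HRD1 KO and 60.8, 65.4 and 134 in SEL1L KO. Replicate 3 was highest in every group of FDFT1, and the log2 fold changes were 0.10 (-0.77 to 0.97) and 0.16 (-0.71 to 1.03).

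SQLE (ENSG00000104549, chr8:124998497-125022283), the epoxidase that takes the first oxygen-dependent step, was at 35.1, 38.3 and 47.0 in WT, 27.8, 45.7 and 50.3 in HRD1 KO and 47.0, 47.4 and 52.5 in SEL1L KO. It was the only member whose SEL1L KO libraries all lay above all WT libraries (47.0 against 46.97 FPKM at the nearest pair), and 2.41% of all tested genes did the same. No member lay wholly below WT in SEL1L KO (3.72% of genes), and none lay wholly above or below in HRD1 KO (1.96% and 3.04%). The log2 fold changes of SQLE were 0.01 (-0.53 to 0.54) in HRD1 KO and 0.30 (-0.23 to 0.83, adjusted p = 1 by limma) in SEL1L KO.

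LSS (ENSG00000160285, chr21:46188141-46228824), which closes the sterol rings, was at 31.7, 35.4 and 79.5 in WT, 37.9, 52.4 and 59.6 in HRD1 KO and 19.8, 30.1 and 83.5 in SEL1L KO. DHCR7 (ENSG00000172893, chr11:71428193-71452868), a last step of the chain, was at 44.8, 43.0 and 70.4 in WT, 55.9, 63.2 and 74.2 in HRD1 KO and 53.9, 58.0 and 82.1 in SEL1L KO. Both genes were again highest in replicate 3 of each group. Their log2 fold changes were 0.14 (-0.995 to 1.27) and 0.32 (-0.23 to 0.86) in HRD1 KO and -0.28 (-1.41 to 0.85) and 0.31 (-0.24 to 0.85) in SEL1L KO. DHCR7 overlaps ENSG00000254682, a long noncoding RNA on the other strand with up to 42.8 FPKM. The overlap is one of gene spans, and whether exons share bases was not examined. As strand-specific counting is not given in the sources used here, reads from any shared bases cannot be told apart.

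**Figure D1:**
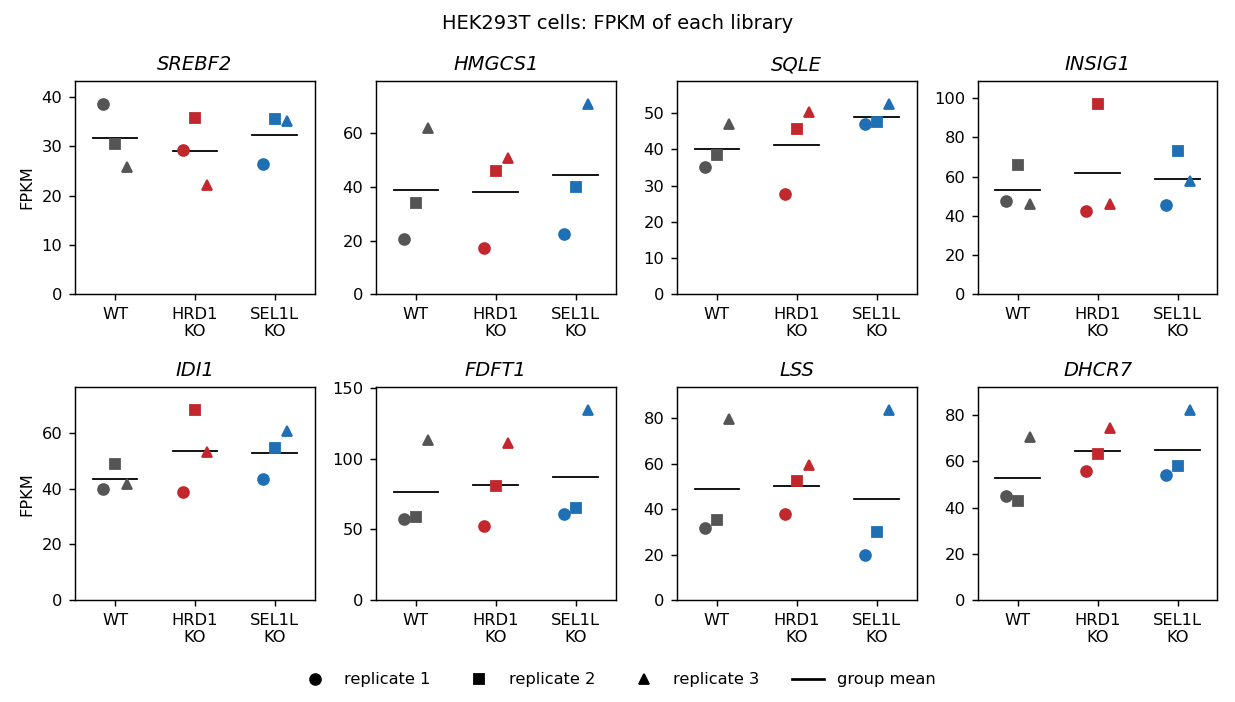
FPKM of the 8 members in each HEK293T library, with 1 panel per gene, the 3 genotypes on the x axis, the marker shape for the replicate number and a line for the group mean. HMGCS1, FDFT1, LSS and DHCR7 are highest in replicate 3 (triangles) of each genotype, and INSIG1 in replicate 2 (squares).

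Replicate number set these levels apart more than genotype did, as it did for the typical tested gene. In HEK293T, libraries with the same number deviated together across all genes, and an additive split of log2(FPKM + 0.1) placed 93.1% of the sum of squares of HMGCS1 on the replicate number, 1.99% on genotype and 4.93% on neither. The share on replicate number was 91.2% for FDFT1, 80.4% for INSIG1, 75.3% for LSS, 68.3% for DHCR7, 55.6% for IDI1 and 49.5% for SQLE, against a median of 54.3% over all tested genes. The median share on genotype over all tested genes was 12.4%. SREBF2 was the lowest member with 25.9% on replicate number, 8.12% on genotype and 65.9% on neither. Of the 8 members, 5 (HMGCS1, FDFT1, LSS, DHCR7 and SQLE) were highest in replicate 3 of all 3 groups and 1 (INSIG1) in replicate 2. Over all tested genes 15% were highest in replicate 3 in this way, 10.9% in replicate 2 and 11.6% in replicate 1. The pattern was noticed in these values and is given as a description.

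The step from replicate 1 to replicate 3, averaged over genotypes, was 1.60 on the log2 scale for HMGCS1, 1.35 for LSS, 1.07 for FDFT1, 0.56 for DHCR7 and 0.48 for SQLE, beside a median of 0.01 over all genes. CYP51A1, an enzyme of the same chain that removes a methyl group from lanosterol, was also highest in replicate 3 of each group, with a step of 0.85. Other enzymes of the chain went both ways. The step was 0.78 for ACAT2, 0.42 for NSDHL and 0.33 for MSMO1. It was -0.78 for PMVK, -0.41 for TM7SF2, -0.22 for EBP and -0.16 for MVD. For FDPS it was -0.13, for HSD17B7 -0.10, for MVK -0.03 and for SC5D -0.005. STARD4, a sterol carrier, was highest in replicate 2 like INSIG1, with FPKM of 5.4, 10.0 and 8.73 in WT and 3.8, 19.2 and 9.22 in HRD1 KO. What the replicate numbers stand for is not given in the sources used here. With the replicate number as a block, limma still called 0 of 8 members in either knockout, while calls over all genes moved from 9 to 25 in HRD1 KO and from 5 to 12 in SEL1L KO.

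**Figure D2:**
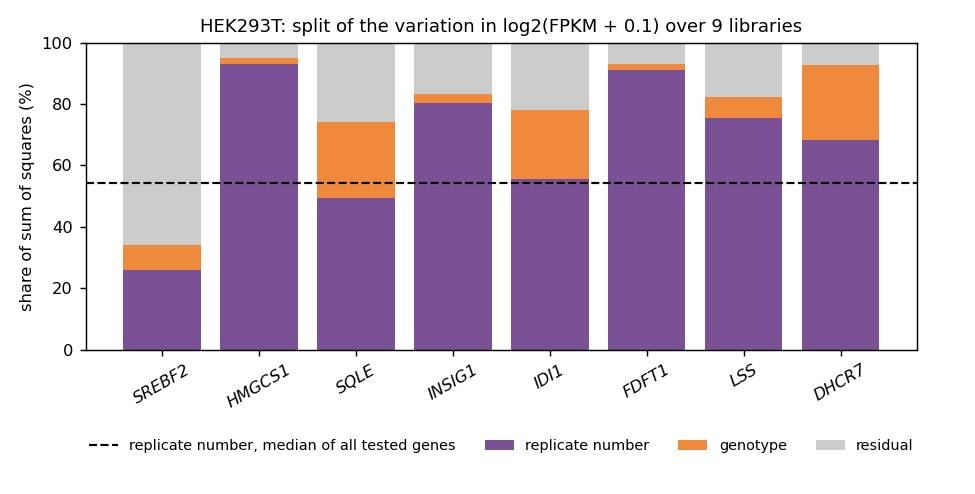
Share of the sum of squares of log2(FPKM + 0.1) over the 9 HEK293T libraries that falls on replicate number, genotype and neither, for each member, with the dashed line at the median replicate share of all tested genes (54.3%). HMGCS1 (93.1%) and FDFT1 (91.2%) have the largest replicate share among the members and SREBF2 (25.9%) the smallest.

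In BAT, no member reached the threshold used for this tissue in the libraries labelled Hrd1 KO. With limma and an adjusted p under 0.01, 0 of 8 members were called in Hrd1 KO, where 0.289% of all tested genes were called higher and 0.0802% lower. At an unadjusted p under 0.05 the count was 3 of 8 (Srebf2, Hmgcs1 and Sqle), all higher, where 25.4% of all tested genes were higher and 2.02% lower. In 5 of 8 members (Srebf2, Hmgcs1, Sqle, Lss and Dhcr7) both Hrd1 KO libraries lay above all WT libraries, which 51.1% of all tested genes did as well, and 0 of 8 lay wholly below, against 5.79%. The median log2 fold change of the members was 0.57 beside 0.42 over all genes.

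Most genes were thus higher in these libraries on the FPKM scale. Median-ratio size factors were 1.31 and 1.16 in Hrd1 KO against 0.865 to 0.941 in WT. After division by them, 4 of 8 members (Srebf2, Hmgcs1, Sqle and Lss) stayed above all WT libraries in both Hrd1 KO libraries, where 21.1% of genes did, and 0 of 8 lay wholly below, where 23.7% did. The median of the members was then 0.13, with 4 of 8 positive, beside -0.02 over all genes.

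Sqle (ENSMUSG00000022351, chr15:59315077-59331192 of GRCm38) had the largest fold change among the members. Its FPKM was 3.43, 1.28 and 2.22 in WT, 6.79 and 13.2 in the libraries labelled Hrd1 KO and 2.24, 2.01 and 2.13 in Sel1L KO. Both Hrd1 KO libraries lay above all 6 others. The log2 fold change in Hrd1 KO was 2.09 ± 0.43 (SE, 95% confidence interval 1.10 to 3.08, adjusted p = 0.0387 by limma), and 1.65 after scaling (adjusted p = 0.125). In Sel1L KO it was -0.01 (-0.90 to 0.87).

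Srebf2 (ENSMUSG00000022463, chr15:82147181-82205379) was at 11.6, 9.93 and 10.4 in WT, 17.9 and 17.7 in Hrd1 KO and 10.1, 12.3 and 10.4 in Sel1L KO. Here the regulator itself was higher in both Hrd1 KO libraries than in any other, while Sel1L KO and WT overlapped. Its log2 fold change in Hrd1 KO was 0.74 ± 0.18 (adjusted p = 0.0545 by limma), and 0.29 after scaling (adjusted p = 0.432). In Sel1L KO it was 0.04 (-0.33 to 0.40).

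Hmgcs1 (ENSMUSG00000093930, chr13:119690379-119708260), the entry enzyme, was at 56.1, 60.6 and 61.9 in WT, 98.4 and 105 in Hrd1 KO and 59.0, 98.4 and 87.3 in Sel1L KO. Sel1L KO replicate 1 lay among the WT libraries and the other 2 above them. On the log2 scale the difference from WT was 0.77 ± 0.22 in Hrd1 KO (adjusted p = 0.0741 by limma) and 0.42 ± 0.19 in Sel1L KO (adjusted p = 0.305), and 0.32 in both after scaling. Without Sel1L KO replicate 1 the value in Sel1L KO was 0.64 (adjusted p = 0.0283 by limma).

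Lss (ENSMUSG00000033105, chr10:76531588-76557138) was at 6.59, 4.16 and 5.26 in WT, 14.3 and 13.8 in Hrd1 KO and 27.3, 5.07 and 5.17 in Sel1L KO. The single value of 27.3 in Sel1L KO replicate 1 set the spread of this gene. The log2 fold change in Hrd1 KO was 1.40 ± 0.66 with all libraries (adjusted p = 0.207 by limma), and adjusted p was 0.00515 at the same fold change without that library. With all libraries and after scaling, the Hrd1 KO value was 0.96 (adjusted p = 0.538 by limma). In Sel1L KO the log2 fold change of 0.76 (-0.59 to 2.11) turned to -0.03 without Sel1L KO replicate 1.

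Dhcr7 (ENSMUSG00000058454, chr7:143823145-143848410) was at 6.47, 4.70 and 4.67 in WT, 7.22 and 6.69 in Hrd1 KO and 0.97, 3.94 and 6.21 in Sel1L KO. Again Sel1L KO replicate 1 was the extreme library, this time the lowest. Its log2 fold change in Hrd1 KO was 0.41 (-1.06 to 1.87). The Sel1L KO value was -0.82 (-2.13 to 0.49), or -0.075 without that library. After scaling, the Hrd1 KO value was -0.04 and the groups overlapped.

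Leaving out Sel1L KO replicate 1 moved the Hrd1 KO comparison although it belongs to neither group, since the 3 groups share 1 estimate of the spread. Calls over all genes then went from 46 to 775 of 12299, and 2 of 8 members were called higher, Lss and Hmgcs1 (log2 fold change 0.77, adjusted p = 0.00502 by limma). Sqle had an adjusted p of 0.0142 and Srebf2 of 0.0124 in that fit. With only the WT and Hrd1 KO libraries in the model, 378 genes were called and 0 of 8 members.

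In the libraries labelled Sel1L KO, the members did not move in 1 direction. With limma 0 of 8 were called, where 0.0882% of all tested genes were called higher and 0.016% lower. At an unadjusted p under 0.05 the count was 2 of 8 (Insig1 and Fdft1), both lower, where 5.08% of all tested genes were lower and 12.7% higher. These 2 members lay wholly below WT, which 8.43% of genes did, and 0 of 8 lay wholly above, against 17.7%. After scaling, 3 of 8 lay wholly below (Insig1, Idi1 and Fdft1, against 13.9% of genes) and 1 of 8 above (Hmgcs1, against 12.8%). The median log2 fold change was -0.29 beside 0.09 over all genes, and -0.06 without Sel1L KO replicate 1.

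Insig1 (ENSMUSG00000045294, chr5:28071363-28078662) was the most abundant member in WT BAT, at 143, 74.7 and 134, with 110 and 152 in Hrd1 KO and 36.5, 43.0 and 50.6 in Sel1L KO. All 3 Sel1L KO libraries lay below the lowest WT library, and the Hrd1 KO libraries among or above WT. The log2 fold change in Sel1L KO was -1.39 ± 0.27 (95% confidence interval -2.01 to -0.77, adjusted p = 0.0616 by limma), -1.49 after scaling and -1.27 without replicate 1 (adjusted p = 0.0523). In Hrd1 KO it was 0.19 (-0.50 to 0.89), and -0.26 after scaling.

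Fdft1 (ENSMUSG00000021273, chr14:63145150-63179578) was at 60.1, 37.9 and 44.9 in WT, 37.4 and 55.7 in Hrd1 KO and 27.8, 30.5 and 27.4 in Sel1L KO. The Sel1L KO libraries were close to each other and below all 5 others. Its log2 fold change was -0.71 ± 0.22 in Sel1L KO (adjusted p = 0.15 by limma) and -0.03 (-0.59 to 0.52) in Hrd1 KO. The span of Fdft1 overlaps that of Ctsb, a lysosomal protease gene on the other strand with up to 344 FPKM. Whether their exons share bases was not examined, and reads from any shared bases cannot be told apart without strand.

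Idi1 (ENSMUSG00000058258, chr13:8885501-8892451) was at 16.3, 11.9 and 17.4 in WT, 17.2 and 21.9 in Hrd1 KO and 6.75, 11.7 and 12.7 in Sel1L KO. Sel1L KO and WT overlapped in 1 pair of libraries. Its log2 fold change was -0.57 (-1.21 to 0.06) in Sel1L KO (-0.29 without replicate 1) and 0.37 (-0.33 to 1.08) in Hrd1 KO, or -0.08 after scaling.

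**Figure D3:**
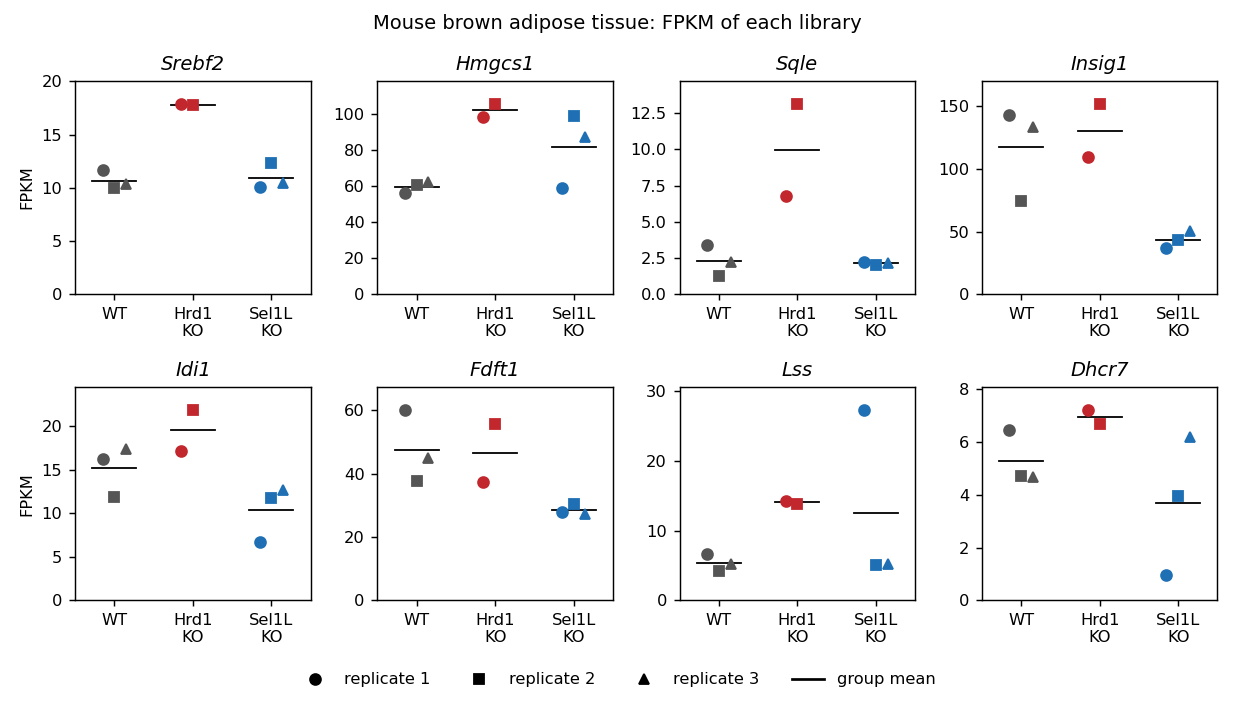
FPKM of the 8 members in each BAT library, with 1 panel per gene, the 3 genotypes by label on the x axis, the marker shape for the replicate number and a line for the group mean. Sqle, Srebf2 and Lss are higher in both Hrd1 KO libraries than in WT, Insig1 and Fdft1 lower in all 3 Sel1L KO libraries, and Sel1L KO replicate 1 (blue circle) is extreme for Lss (27.3) and Dhcr7 (0.97).

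**Figure D4:**
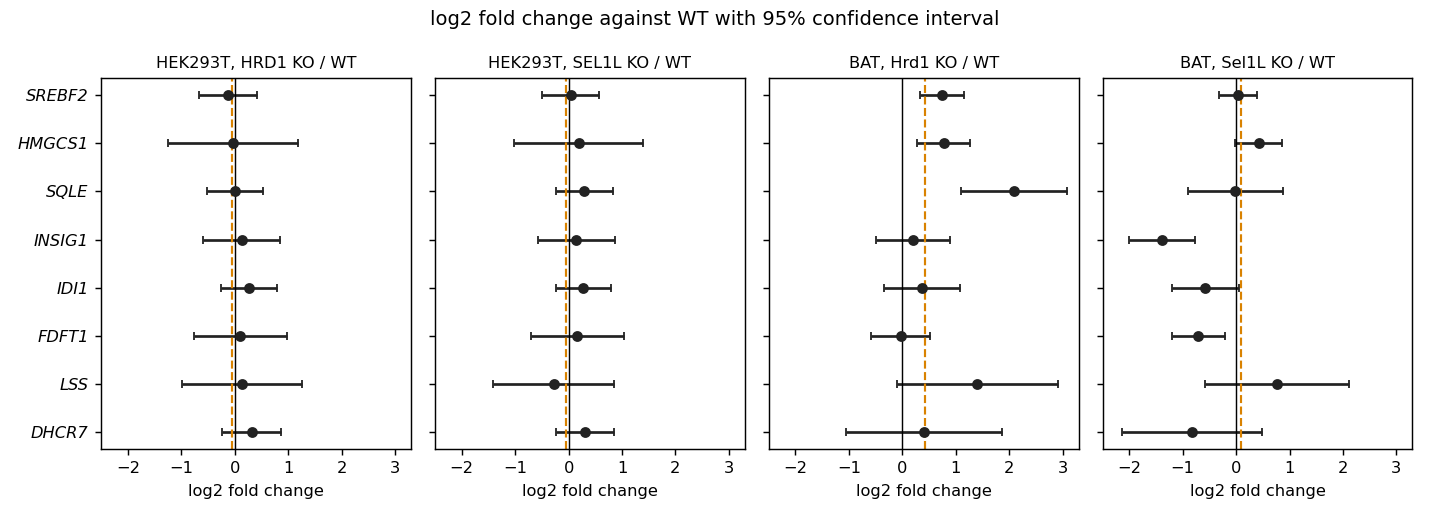
log2 fold change of each member against WT with its 95% confidence interval in the 4 comparisons, with human symbols in all panels and a dashed line at the median of all genes tested. In HEK293T all intervals include 0. In BAT, those of SREBF2, HMGCS1 and SQLE in Hrd1 KO lie above 0 and those of INSIG1 and FDFT1 in Sel1L KO below it.

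The 2 knockouts were also set against each other. In HEK293T 0 of 8 members were called between HRD1 KO and SEL1L KO, where 0% of all genes were, the count at an unadjusted p under 0.05 was 0 of 8 (1.18% of genes higher and 1.16% lower in HRD1 KO), and the median log2 fold change was -0.03. In BAT 0 of 8 were called, where 0.0401% of genes were, and 5 of 8 had an unadjusted p under 0.05, all higher in Hrd1 KO, where 15.5% of genes were higher and 1.18% lower. The median there was 0.83 beside 0.30 over all genes. Insig1 differed by 1.58 ± 0.30 (adjusted p = 0.111 by limma) and Sqle by 2.10 ± 0.43 (adjusted p = 0.127), so that neither difference passed the threshold. After scaling they were 1.23 and 1.76, with adjusted p of 0.332 and 0.335.

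Markers of other cells differed between genotypes in BAT on the FPKM scale, and were not scaled between libraries. On that scale 51.1% of all tested genes lay wholly above WT in Hrd1 KO and 17.7% in Sel1L KO. After scaling these shares were 21.1% and 12.8%, so part of the marker differences may be the general shift. All 6 macrophage and leukocyte markers were above WT in every Hrd1 KO and Sel1L KO library, with summed FPKM that lay between 39.8 and 42.8 (Hrd1 KO) and between 42.1 and 57.6 (Sel1L KO), above the 17.8 to 22.5 of WT. All 4 fibroblast and all 4 endothelial markers were above WT in Hrd1 KO, with sums of 108 to 126 against 55.0 to 82.0 and 104 to 135 against 62.8 to 85.3. In Sel1L KO those sums ran from 110 to 127 and from 65.1 to 117, with 3 and 1 of the markers above WT. All 5 skeletal muscle markers were above WT in Hrd1 KO, with sums of 303 in replicate 1 and 10.7 in replicate 2 against 1.16 to 3.02, and the highest sum in Sel1L KO was 53.8. The 9 brown adipocyte markers were present in every library, with sums between 25500 and 28900 in WT, between 19100 and 24900 in Hrd1 KO and between 21400 and 25000 in Sel1L KO. Fabp4, at 11646 to 17463 FPKM, made up most of every sum, and single markers moved apart. In Hrd1 KO, Ucp1 was 1138 and 1358 against 2041 to 2709 in WT, and Dio2 was 5.77 and 4.69 against 33.5 to 41.6. Plin1 was the 1 of 9 wholly above WT in Hrd1 KO, at 810 and 824 against 480 to 575. The part of these cells in the members' values was not tested, and in tissue RNA fewer cells of a type and less RNA per cell cannot be told apart. In HEK293T, 4 markers of liver, blood and fat cells (ALB, PTPRC, UCP1 and ADIPOQ) summed to at most 0.61 FPKM in any library.

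**Figure D5:**
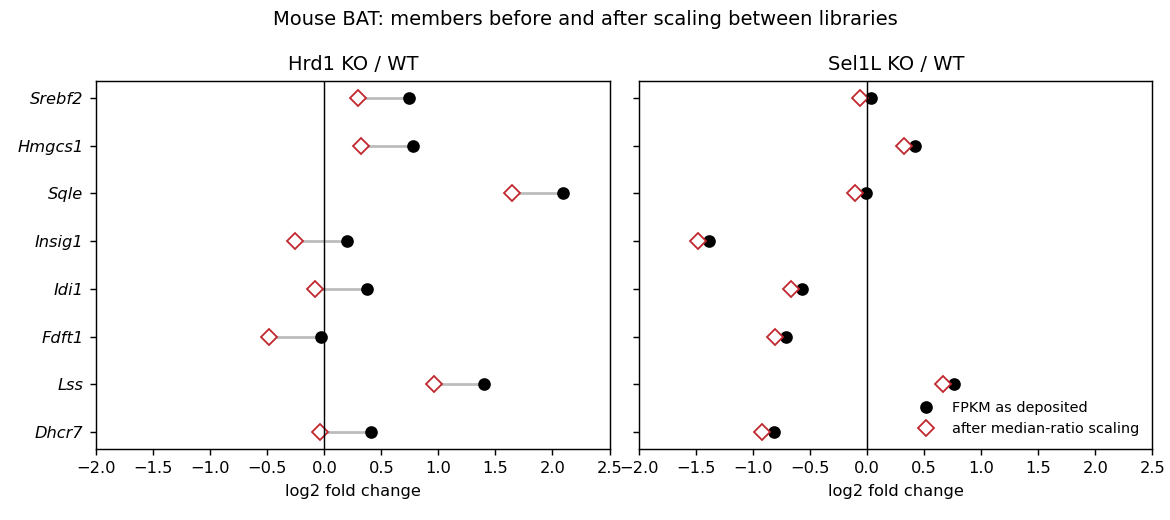
log2 fold change of each member in BAT against WT, from FPKM as deposited (filled circles) and after median-ratio scaling between libraries (open diamonds). Scaling lowers the values in Hrd1 KO, where Insig1, Idi1 and Dhcr7 cross 0 and Sqle stays at 1.65, and moves those in Sel1L KO little, with Insig1 at -1.49.

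Other enzymes of the same chain were described as a list of 13. None was called in any comparison. In Hrd1 KO BAT 7 of 13 had an unadjusted p under 0.05, all higher, beside the 25.4% of all genes, and the median log2 fold change was 0.85 beside 0.42 over all genes, or 0.41 beside -0.02 after scaling. Mvd, the decarboxylase of the mevalonate steps, was at 5.59, 1.65 and 3.69 in WT and 9.31 and 26.4 in Hrd1 KO, a log2 fold change of 2.23 ± 0.64 (adjusted p = 0.0775 by limma). Fdps, farnesyl diphosphate synthase, was at 34.6, 19.8 and 29.3 in WT and 54.6 and 98.9 in Hrd1 KO, 1.43 ± 0.32 (adjusted p = 0.0472). After scaling both stayed above WT in every library, at 1.79 (adjusted p = 0.229 by limma) and 0.98 (adjusted p = 0.186). Of the list, 4 of 13 then lay wholly above WT, where 21.1% of all tested genes did. Wholly below lay 1 of 13, where 23.7% did. In Sel1L KO BAT the median of the list was -0.19, 1 of 13 had an unadjusted p under 0.05, and Nsdhl had a log2 fold change of -1.22, or -0.79 without replicate 1. In HEK293T the medians were 0.10 and 0.12, 0 and 1 of 13 had an unadjusted p under 0.05, and the 1 was HSD17B7, a sterol ketone reductase, at 14.6, 12.7 and 10.98 in WT and 22.9, 20.4 and 19.8 in SEL1L KO (0.73 ± 0.20, adjusted p = 1 by limma). The next largest there were MVD (0.46) and NSDHL (0.41) in HRD1 KO and SC5D (-0.52) in SEL1L KO.

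The lists that control or use the pathway held no called gene either. Of the 8 genes of SREBP processing and sterol sensing, the medians in BAT were 0.33 in Hrd1 KO and -0.19 in Sel1L KO, or -0.11 and -0.28 after scaling. Srebf1 was at 101, 76.0 and 65.6 in WT, 245 and 256 in Hrd1 KO and 15.5, 188 and 142 in Sel1L KO, so that Sel1L KO replicate 1 was below all WT libraries and the other 2 above. Its log2 fold change in Hrd1 KO was 1.66 ± 0.90 (adjusted p = 0.267 by limma, 0.00251 without that library and 0.00549 with only the 2 groups in the model). Tmem97 had 1.11 in Hrd1 KO (0.67 after scaling) and 0.53 in Sel1L KO (0.43 after scaling). Mbtps1, a protease that cuts SREBPs, had -0.46 in Sel1L KO (-0.56 after scaling). In HEK293T the medians were -0.19 and -0.06, with MBTPS2 (-0.31) and INSIG2 (-0.29) largest in HRD1 KO and SREBF1 (0.34) and ERLIN2 (-0.32) in SEL1L KO.

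The 5 genes of sterol-controlled degradation had a median of 0.25 in Hrd1 KO BAT, below the 0.42 of all genes, which turned to -0.20 with median-ratio scaling and -0.10 with quantile normalization. Its medians were -0.05 in Sel1L KO BAT (0.27 without replicate 1) and -0.13 and -0.02 in HEK293T. Of its ER ubiquitin ligases, Rnf145 had a log2 fold change of 0.78 in Hrd1 KO BAT (0.33 after median-ratio scaling). Marchf6 had -0.25 in Sel1L KO BAT (-0.35 after that scaling), and MARCHF6 had -0.18 in HRD1 KO and -0.11 in SEL1L KO cells. Marchf6 also lay below WT in both Hrd1 KO BAT libraries (13.4 and 13.9 FPKM against 14.5 to 15.9). On the FPKM scale 5.79% of all tested genes lay wholly below WT in Hrd1 KO, and 23.7% after median-ratio scaling. The isoprenoid branch, which leads from the same precursor to dolichol and ubiquinone, had a median over 6 genes of 0.25 in Hrd1 KO BAT, which was -0.20 after either scaling and 0.46 without Hrd1 KO replicate 2. In Sel1L KO BAT the median was 0.01, or -0.08 after median-ratio scaling and 0.16 without replicate 1, and in HEK293T it was 0.08 and 0.18. Its largest values in BAT were 0.92 for Dhdds and 0.44 for Nus1 in Hrd1 KO, or 0.47 and -0.0079 after median-ratio scaling. In Sel1L KO BAT they were 0.63 and 0.59 for the same genes, or 0.53 and 0.50 after that scaling. In HEK293T they were 0.25 for NUS1 and -0.23 for DHDDS in HRD1 KO, and 0.44 for PDSS1 and -0.30 for DHDDS in SEL1L KO.

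Sterol transport and esterification was tested for 11 of 12 genes in each table, as ABCA1 in HEK293T and Soat1 in BAT failed the filter. Abcg1, a sterol exporter, was at 1.3, 1.04 and 1.09 in WT, 4.06 and 3.88 in Hrd1 KO and 8.90, 3.86 and 4.46 in Sel1L KO. Every knockout library lay above WT, as 51.1% of all tested genes did in Hrd1 KO and 17.7% in Sel1L KO. The log2 fold changes were 1.72 ± 0.37 (adjusted p = 0.0435 by limma) and 2.14 ± 0.33 (adjusted p = 0.0337), neither under the 0.01 used here, and 1.28 and 2.05 after scaling. Without Sel1L KO replicate 1 the Hrd1 KO value of Abcg1 passed (adjusted p = 0.00348 by limma) and the Sel1L KO value was 1.78 (adjusted p = 0.0109). Abca1, another exporter, was lower in all Sel1L KO libraries (-0.78 ± 0.19, adjusted p = 0.0959 by limma). It also lay below WT in both Hrd1 KO libraries (9.88 and 10.85 FPKM against 12.0 to 14.4). Of all tested genes 8.43% lay wholly below WT in Sel1L KO and 5.79% in Hrd1 KO. Osbp, a sterol-binding protein, had a log2 fold change of 1.04 ± 0.29 in Hrd1 KO (adjusted p = 0.0729 by limma), or 0.59 after scaling, and passed without Sel1L KO replicate 1 (adjusted p = 0.00297) and with only the 2 groups in the model (adjusted p = 0.00814). The median of the list in Hrd1 KO BAT was 0.52 beside 0.42 over all genes, or 0.07 beside -0.02 after scaling. In Sel1L KO BAT it was -0.17 beside 0.09, or -0.26 after scaling and -0.08 without replicate 1. In HEK293T the medians were 0.16 and -0.09, where NR1H3 (0.61), NR1H2 (0.26), ABCG1 (0.56) and STARD4 (0.35) were largest.

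No gene of fatty acid synthesis was called in BAT. In Sel1L KO the median of its 8 genes was -1.27 beside 0.09 over all genes, and 5 of 8 had an unadjusted p under 0.05 and a lower level, 2 of 8 a higher one, where 5.08% and 12.7% of all genes did. Fasn, fatty acid synthase, was at 1997, 800.3 and 1024 in WT, 1075 and 1752 in Hrd1 KO and 123, 371 and 355 in Sel1L KO. Acaca, acetyl-CoA carboxylase, was at 241, 123 and 143 in WT, 146 and 265 in Hrd1 KO and 27.5, 54.1 and 50.7 in Sel1L KO. Both lay below WT in all 3 Sel1L KO libraries, which 8.43% of all tested genes did. Their log2 fold changes there were -2.22 ± 0.49 (adjusted p = 0.0756 by limma) and -1.94 ± 0.36 (adjusted p = 0.055), or -1.70 and -1.63 without replicate 1. In Hrd1 KO the median was 0.57 beside 0.42 over all genes, or 0.12 after scaling, 1.03 without Hrd1 KO replicate 1 and 0.10 without Hrd1 KO replicate 2. Fads1, a desaturase, had a log2 fold change of 1.92 ± 0.27 in Hrd1 KO (adjusted p = 0.0137 by limma), or 1.49 after scaling. Without scaling it passed when Sel1L KO replicate 1 was left out (adjusted p = 0.00159 by limma) and with only the 2 groups in the model (adjusted p = 0.00543). Acly overlapped WT at 1.29 (0.84 after scaling), and ranged from 0.69 to 1.89 with single libraries left out. In HEK293T the medians were 0.03 and 0.11, with FADS1 (0.64), ACACA (0.33), ACSS2 (-0.50) and ELOVL6 (0.46) largest.

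The order of the members by WT level differed between cells and tissue. In WT HEK293T, FDFT1 was highest at 76.4 ± 31.6 FPKM (SD, n = 3), followed by INSIG1 (53.1 ± 11.1), DHCR7 (52.7 ± 15.3), LSS (48.9 ± 26.6), IDI1 (43.4 ± 4.68), SQLE (40.1 ± 6.14), HMGCS1 (38.8 ± 21.1) and SREBF2 (31.7 ± 6.49), with every neighbouring pair closer than the larger of its SDs. In WT BAT, Insig1 stood at 117 ± 37.2, Hmgcs1 at 59.5 ± 3.05, Fdft1 at 47.6 ± 11.4, Idi1 at 15.2 ± 2.89 and Srebf2 at 10.6 ± 0.877, then Lss (5.34 ± 1.22), Dhcr7 (5.28 ± 1.03) and Sqle (2.31 ± 1.08). The tables hold different species and were scaled separately, so levels are not set against each other across them.

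Genes whose level followed the members most closely were sought over all libraries of a table, by Pearson correlation with the mean of the members' standardised log2 values. In HEK293T (9 libraries) these were XKR6 (r = 0.973), MSMO1 (0.969), VPS37C (0.961), SPOPL (0.952) and USPL1 (0.952), of which MSMO1, a sterol methyl oxidase, is an enzyme of the chain. In BAT (8 libraries) these were Ralgps1 (0.989), Slc38a10 (0.981), Mbd3 (0.979), Fdps (0.979) and Lpin2 (0.979). The members' own correlations with that mean ran from 0.158 for SREBF2 to 0.928 for HMGCS1 in HEK293T and from 0.199 for Lss to 0.924 for Sqle in BAT. With so few libraries that share group, replicate number and scaling, these are descriptions.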

How the data were processed

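RNA-seq libraries of 9 HEK293T cultures and 8 mouse BAT samples were grouped by their labels. Per the labels and the study's methods, the authors sequenced all libraries paired-end on 1 flow cell, mapped reads with STAR 2.7.8a to GRCh38 or GRCm38 and estimated abundance with RSEM 1.3.3; FastQC 0.11.8 is named in the submitters' processing notes. The deposited values are FPKM per gene and library, to 2 decimals. FPKM divides by the library total, so very abundant mRNAs shift the rest, and RSEM shares reads between paralogs by estimate. FPKM are not counts, so no count test was run. Read depth is not given by FPKM. Low values come in steps of 1 fragment, and the size of these steps placed relative depth within a 1.87-fold range for HEK293T and a 1.74-fold range for BAT libraries. Low genes are measured less precisely.

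The test was limma 3.58.1 (R 4.3.3), applied to log2(FPKM + 0.1) as a moderated linear model with a mean-variance trend, 3 groups per table in 1 model, and Benjamini-Hochberg adjustment over 15796 (HEK293T) or 12473 (BAT) genes. Genes needed 1 FPKM or more in 3 (HEK293T) or 2 (BAT) libraries. Thresholds were 0.05 and 0.01. Fold changes are on this log2 scale, which understates low genes. The fit and the depth estimate were tested on simulated data. Alternatives were pseudocounts of 1 and 0.01, no filter, median-ratio scaling, quantile normalization, a replicate block, 2 groups only, each library left out and other thresholds. Gene positions are from GENCODE 44 (GRCh38) and M21 (GRCm38). Promoters are RefSeq's (GRCh38.p14). Python 3.11.15 with pandas 2.3.3 handled the tables, and matplotlib 3.10.9 drew the plots.

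In HEK293T the 9 pairs of libraries with the same replicate number had correlations of their deviations from the group means of 0.216 to 0.485 and the 18 other pairs of -0.40 to 0.0270, so the numbers pair these libraries. Named genes are the 8 members, the targeted genes, and from each other list every called gene or else the 2 with the largest change in each comparison with WT, plus the 5 genes most like the members. Genes named beyond this rule, such as CYP51A1, Dio2 and Ctsb, were chosen after their values were seen. Some genes that the rule names are not reported here, but stay in the counts and medians of their lists. The members and lists were chosen with earlier results of these data known.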

Additional observations from a re-analysis of the deposited data

How the results depend on the processing

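The 8 members kept 0 calls in all 3 HEK293T comparisons under every alternative run. In BAT, counts of members called moved with the threshold. At an unadjusted p under 0.05, 3 were higher in Hrd1 KO, where 25.4% of all tested genes were. In Sel1L KO 2 were lower, where 5.08% of genes were. Against Sel1L KO 5 were higher in Hrd1 KO, where 15.5% of genes were. At an adjusted p under 0.05 the count in Hrd1 KO was 1 (Sqle, adjusted p = 0.0387 by limma, or 0.125 after median-ratio scaling). The share of all genes at that threshold was not computed, so this count is not read as a result about the members. Leaving out a single WT or Sel1L KO library gave 0 to 2 in Hrd1 KO. The 2 came without Sel1L KO replicate 1, where 775 of 12299 genes were called. The members' median log2 fold change in Hrd1 KO was 0.13 with median-ratio scaling and 0.17 with quantile normalization, against Sel1L KO 0.47 and 0.58, and in Sel1L KO -0.55 to -0.062 with libraries left out. Median-ratio scaling turned Insig1 (-0.26), Idi1 (-0.0775), Dhcr7 (-0.0373) and Nus1 (-0.0079) in Hrd1 KO and Srebf2 (-0.0614) in Sel1L KO. Quantile normalization turned Idi1 (-0.0251), Dhcr7 (-0.10), Srebf2 in Sel1L KO (-0.11) and HMGCS1 in HRD1 KO (0.033). The cause was not tested. Leaving out single libraries turned signs, with ranges in HRD1 KO of -0.29 to 0.0499 (SREBF2), -0.42 to 0.46 (HMGCS1), -0.16 to 0.27 (SQLE), -0.25 to 0.35 (INSIG1), -0.15 to 0.42 (FDFT1), -0.11 to 0.55 (LSS), -0.0347 to 0.65 (NUS1) and -0.55 to 0.0898 (MBTPS2), and in SEL1L KO of -0.10 to 0.19 (SREBF2), -0.23 to 0.60 (HMGCS1), -0.0285 to 0.31 (INSIG1), -0.20 to 0.48 (FDFT1), -0.87 to 0.165 (LSS) and -0.30 to 1.01 (ABCG1). In BAT the ranges were -0.10 to 0.43 (Insig1) and -0.32 to 0.25 (Fdft1) in Hrd1 KO and -0.0525 to 0.10 (Srebf2), -0.36 to 0.31 (Sqle) and -0.0344 to 1.17 (Lss) in Sel1L KO. With the replicate block the members' medians were 0.12 and 0.17 in HEK293T, 0.68 and -0.29 in BAT, and no member was called, while calls over all genes were 25, 12 and 2 in HEK293T and 5, 1 and 4 in BAT, where same-numbered libraries did not deviate together (correlations of -0.060 to 0.077).

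Calls over all genes in Hrd1 KO BAT were 46, against 5 with median-ratio scaling, 18 with quantile normalization, 378 with 2 groups in the model, 775 without Sel1L KO replicate 1 and 1 without any 1 WT library. In Sel1L KO BAT they were 13, against 1 with either scaling, no filter or 2 groups, and 61 without replicate 1. Between the BAT knockouts they were 5, against 14 with no filter, 8 with a pseudocount of 1 and 0 with 2 groups. In HEK293T they were 9 and 5, against 2 and 4 with 2 groups, and 8 and 9 with no filter. FPKM carry no read counts, so depth limits could not be given per gene.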
